A study of Mus musculus with 12 samples.

Results

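The 37 genes described here are imprinted genes of the mouse, taken by symbol from a raw count table of 24421 genes in paused embryonic stem cells. They lie in 19 clusters or single loci. By textbook knowledge, 12 of them are transcribed from the maternal copy, 23 from the paternal copy and 2 (Gnas and Ube3a) from one copy or both depending on the tissue. The reads were counted per gene without telling the parental copies apart, so every value below is the sum of both.

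Imprinted genes carry DNA methylation that is set in the egg or the sperm and kept through early development, so that only the copy from one parent is active. Many lie in clusters in which a methylated control region and a long noncoding RNA govern several neighbours at once. The best known members act on growth of the fetus and placenta, in opposite directions for maternally and paternally expressed genes, and cultured embryonic stem cells are known to vary in their imprints.

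PolyA RNA was sequenced from E14 mouse embryonic stem cells of the genotype given as WT(dCas_Alkbh5), a wild-type line expressing a Cas protein joined to Alkbh5, which erases m6A methylation of RNA. The series asks what m6A does to RNA output in paused pluripotency, and the guides direct the fusion to the transcript of Mycn, a growth-promoting transcription factor. The 12 libraries formed 3 groups of 4, named NT for the non-targeting control guide and Mycn-gRNA2 and Mycn-gRNA3 for guides to Mycn. All groups shared the fusion, gelatin, serum and LIF, a lenti-sgRNA-BSD guide plasmid, 3 days of selection in 8 µg/mL blasticidin and 5 days of pausing in 200 nM INK128, which blocks mTOR, a kinase that promotes growth, and slows the division of these cells. RNA came from equal cell numbers and received synthetic ERCC RNAs. Whether replicates were separate cultures is not said in the labels. The p-values therefore rest on the spread among these libraries, some or all of which may be technical.

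Libraries held 17248564 to 33819855 endogenous reads, and 1.04% to 1.61% of all reads came from ERCC RNAs. Mycn ran from 136 to 146 CPM (a gene's share of the library's counts, TMM-scaled) in NT, from 205 to 262 CPM with Mycn-gRNA2 and from 258 to 292 CPM with Mycn-gRNA3. Embryonic stem cell markers were abundant in every library, with a summed level over 12 genes of 5445 to 5941 CPM in NT, 4380 to 5023 CPM with Mycn-gRNA2 and 4643 to 5271 CPM with Mycn-gRNA3. Relative to the transcriptome, 6 of the 12 were lower, Nanog by -0.60 (edgeR adjusted p = 2.79e-05) and Fgf4 by -0.44 (edgeR adjusted p = 0.000982) among them, and none higher with the Mycn guides. Of all genes tested, 13% were lower and 14.9% higher. The NT libraries stood apart from the others in the sum of 4 Y-linked genes, at 0.0449 to 0.181 CPM against 32.4 to 83.8 CPM with Mycn-gRNA2 and 46.1 to 63.6 CPM with Mycn-gRNA3. All 4 NT libraries share this trait, so for every comparison with NT a difference between the cultures cannot be told apart from the guides.

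Differences are given on the log2 scale from edgeR's quasi-likelihood test over all 14497 genes tested, with an adjusted p under 0.05 as the call. They are relative to the transcriptome unless stated to be per ERCC read. The latter scale sets RNA against the spike, and on it the median of all genes tested was 0.39 higher with the Mycn guides than in NT. In these bulk samples, fewer cells of a type and less RNA per cell cannot be told apart.

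The sequences printed first belong to noncoding RNAs that were called with the Mycn guides. Of H19, Meg3, Rian, Mirg, Peg13 and Kcnq1ot1, promoter windows were in the table for 4. Promoter windows, from 250 bases before to 50 bases after the annotated start, are from RefSeq on GRCm38.p6 and are written 5′ to 3′ on the transcript's strand. They are shown for the 3 maternally expressed RNAs of the Dlk1-Dio3 cluster, which were all lower with the Mycn guides, and for Kcnq1ot1, the noncoding RNA of another cluster, which was lower too. Capitals mark a match to TGCCGC on either strand, the core letters that ZFP57, a protector of imprints, binds when they are methylated.
Meg3, chr12:109540746-109541045, plus strand: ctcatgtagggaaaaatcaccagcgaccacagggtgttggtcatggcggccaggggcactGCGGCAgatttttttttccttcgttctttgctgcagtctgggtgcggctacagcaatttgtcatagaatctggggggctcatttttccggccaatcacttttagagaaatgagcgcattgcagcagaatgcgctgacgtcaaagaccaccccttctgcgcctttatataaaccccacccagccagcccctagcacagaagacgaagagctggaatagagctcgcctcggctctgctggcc
Rian, chr12:109603695-109603994, plus strand: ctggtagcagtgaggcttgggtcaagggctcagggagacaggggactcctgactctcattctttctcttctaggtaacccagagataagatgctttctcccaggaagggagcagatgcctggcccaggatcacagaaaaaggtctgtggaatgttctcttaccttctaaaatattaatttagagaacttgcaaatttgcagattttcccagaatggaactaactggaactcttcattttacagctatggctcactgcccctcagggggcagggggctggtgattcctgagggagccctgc
Mirg, chr12:109734731-109735030, plus strand: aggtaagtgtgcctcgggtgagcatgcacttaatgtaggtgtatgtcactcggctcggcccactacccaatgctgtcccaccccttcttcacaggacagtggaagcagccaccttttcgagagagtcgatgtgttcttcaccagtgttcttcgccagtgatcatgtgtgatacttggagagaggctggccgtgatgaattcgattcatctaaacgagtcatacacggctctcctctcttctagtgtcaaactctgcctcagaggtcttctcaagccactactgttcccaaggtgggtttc
Kcnq1ot1, chr7:143296498-143296797, minus strand: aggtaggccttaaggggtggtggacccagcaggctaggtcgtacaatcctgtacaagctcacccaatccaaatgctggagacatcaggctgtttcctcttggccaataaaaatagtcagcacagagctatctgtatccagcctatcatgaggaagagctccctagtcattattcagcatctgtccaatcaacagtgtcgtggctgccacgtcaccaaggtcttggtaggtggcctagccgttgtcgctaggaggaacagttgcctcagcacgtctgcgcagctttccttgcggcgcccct
TGCCGC was found once in the Meg3 window, on the reverse strand, and its letters were not in the other 3 windows. The table held 47 promoter windows for 31 of the 37 imprinted genes. TGCCGC was in 12 of these 47 windows (25.5%) and in 11.6% of all 32851 windows. CACGTG, the E-box that MYC proteins bind, was in 3 of the 47 windows (6.38%), at Igf2r, Mcts2 and Plagl1, and in 7.15% of all windows. The motifs do not overlap each other, both strands were searched, and a match is a description of letters only.

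Several of these RNAs contain microRNAs, short RNAs that pair with target messages through the seed at bases 2 to 8. The mature forms that lie in exons of H19, Meg3 and Mirg are shown, because these 3 RNAs rose or fell with the Mycn guides. Capitals mark the seed, and the sequences are from RefSeq on GRCm38.p6.
miR-675-5p in H19: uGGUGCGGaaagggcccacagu
miR-675-3p in H19: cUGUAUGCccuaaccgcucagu
miR-1906 in Meg3: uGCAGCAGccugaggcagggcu
miR-770-5p in Meg3: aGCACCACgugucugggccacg
miR-770-3p in Meg3: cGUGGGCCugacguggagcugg
miR-410-5p in Mirg: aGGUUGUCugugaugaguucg
miR-410-3p in Mirg: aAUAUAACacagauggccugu
No seed was shared among them. Of the hairpins listed in the RefSeq table, 10 lie within Mirg, 3 within Rian and 1 each within H19, Igf2, Meg3, Mest and Usp29, and miR-1906 is listed as a mature form. PolyA libraries of long RNA do not measure the mature microRNAs, and no level is given for them.

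In NT cells the 37 genes covered a wide range of levels. Per kilobase of exon, the highest in NT were Cdkn1c at 59.6 CPM per kb, Peg3 at 54.6, Impact at 51.1 and Zdbf2 at 47.7 CPM per kb. Cdkn1c was first in NT replicates 1 and 2 (83.4 and 91.5 CPM per kb) but lay below Peg3, Impact and Zdbf2 in NT replicates 3 and 4 (32.1 and 31.3 CPM per kb). The lowest on the NT mean were Airn at 0.0993 CPM per kb and Snrpn at 0.00887 CPM per kb. Of the 37, 35 passed the filter on low counts. The 2 that did not were Airn, with 2 to 8 reads per library, and Snrpn, with 0 to 3. Snrpn, which encodes a splicing protein, shares 82.8% of its exon bases with Snurf, which was listed with 0 reads, so its count cannot be read as a level.

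With both Mycn guides against NT, the imprinted genes moved in both directions. Of the 35 tested, 11 were higher, 9 were lower and 15 were not called. The called share was 57.1% of the tested imprinted genes, beside 27.8% of all genes tested (14.9% higher and 13% lower). The members were chosen with earlier results of these data known, so this share and those below are no measure of an excess. The median difference of the 35 was 0.05, beside -0.003 over all genes. H19 (1.89), Peg12 (1.44) and Igf2 (1.02) rose most among those called, and Mirg (-1.33), Rian (-1.08) and Meg3 (-0.85) fell most. In 9 genes all 8 guide libraries lay above all NT libraries, as did 8.56% of all genes tested, and in 5 all 8 lay below, as did 6.87%.

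Both parental classes moved in both directions. Among the 12 maternally expressed genes, 2 were higher (H19 and H13), 3 were lower (Meg3, Rian and Mirg) and 7 were not called, with a median of 0.05. Among the 21 tested paternally expressed genes, 8 were higher, 6 were lower and 7 were not called, with a median of 0.09. Of the 2 genes whose expressed copy depends on tissue, Gnas was higher and Ube3a was not called. No difference between the classes was tested.

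**Figure D1:**
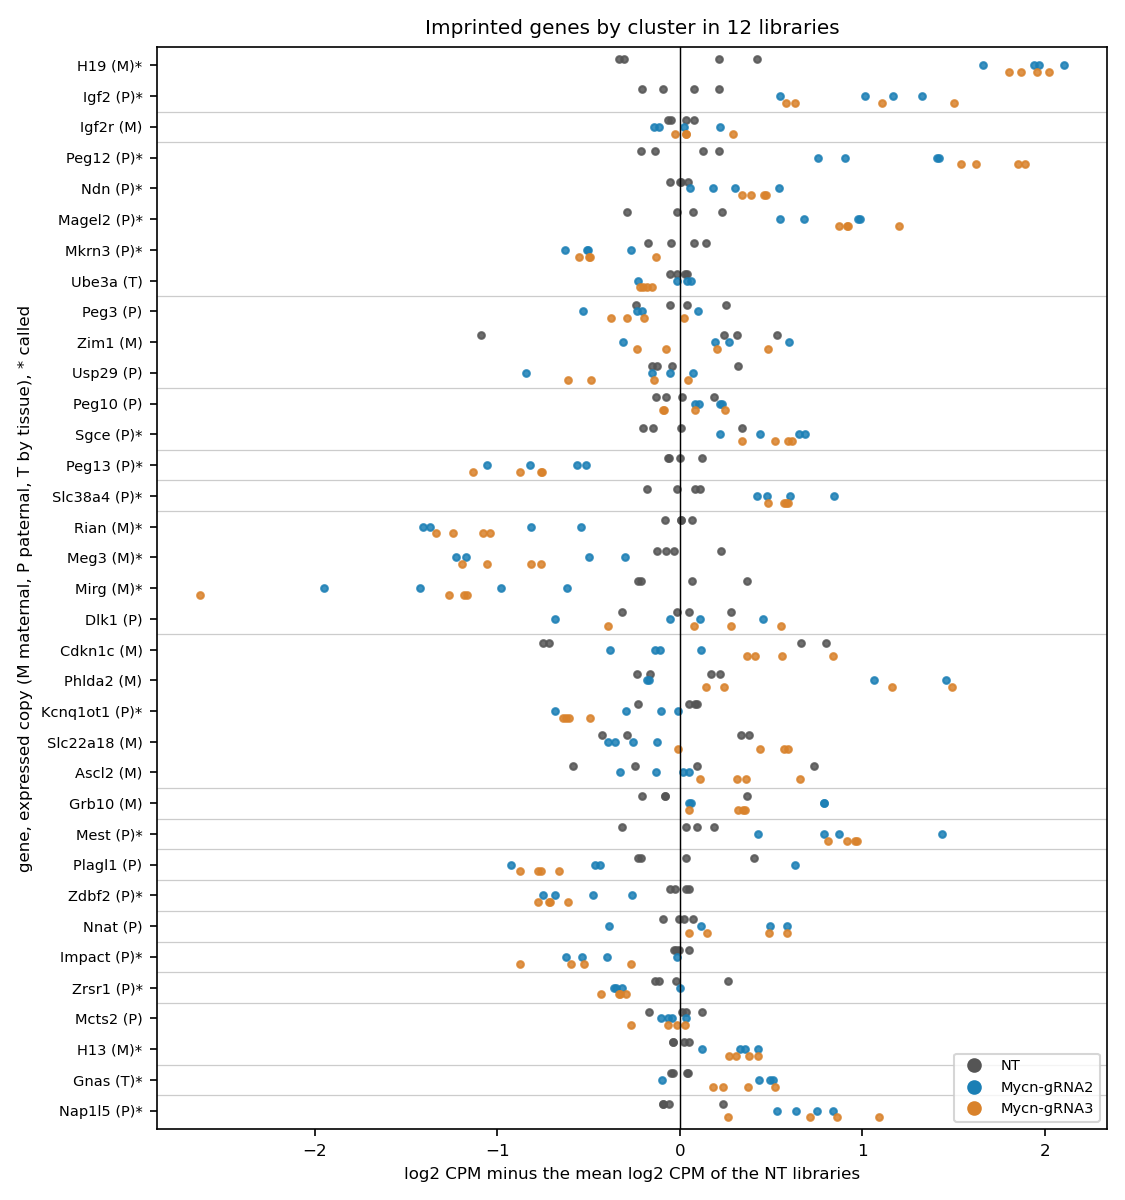
Each dot is a library, placed by its log2 CPM minus the mean log2 CPM of the 4 NT libraries, for the 35 tested imprinted genes; lines separate the 19 clusters or loci, of which single genes form many, and an asterisk marks a call with both guides against NT. H19, Peg12 and Igf2 lie to the right of NT with both guides, Meg3, Rian and Mirg to the left, and Cdkn1c and Ascl2 spread widely within NT itself.

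The H19-Igf2 cluster, on chromosome 7, gave the largest rise. H19 (chr7:142575530-142578146, minus strand) is a maternally expressed long noncoding RNA whose control region it shares with Igf2, the growth factor expressed from the paternal copy. H19 was at 1.94, 2.78, 1.90 and 3.21 CPM in NT replicates 1 to 4, at 9.39, 7.57, 10.3 and 9.21 CPM with Mycn-gRNA2 and at 8.76, 9.29, 9.74 and 8.35 CPM with Mycn-gRNA3. All 8 guide libraries were high and none overlapped NT. H19 rose by 1.89 (SE 0.147, edgeR adjusted p = 2.62e-06) with both guides together, by 1.90 with Mycn-gRNA2 and by 1.88 with Mycn-gRNA3. Per ERCC read the rise was 2.29 (SE 0.204, edgeR adjusted p = 4.49e-11).

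Igf2 (chr7:142650768-142661035, minus strand) was at 3.25, 3.95, 3.52 and 4.35 CPM in NT. With Mycn-gRNA2 its level was 7.57, 5.48, 9.40 and 8.42 CPM, and with Mycn-gRNA3 it was 5.81, 5.61, 10.6 and 8.08 CPM. Replicate 2 of Mycn-gRNA2 and replicates 1 and 2 of Mycn-gRNA3 were the lowest of the guide libraries, yet still above all of NT. Igf2 rose by 1.02 (SE 0.191, edgeR adjusted p = 0.00156). The reciprocal pair thus rose together. Set per exon length, the log2 ratio of H19 to Igf2 was 0.25 ± 0.21 in NT (SD, n = 4), 1.15 ± 0.16 with Mycn-gRNA2 and 1.20 ± 0.41 with Mycn-gRNA3, a description without a test. Of the 15 tested genes within 1 Mb that are on neither imprinted list, 5 were higher and none lower, with a median of -0.01. Over all genes tested, 14.9% were higher and 13% lower.

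The receptor of this growth factor was not called. Igf2r (chr17:12682406-12769706), classed by textbook knowledge as maternally expressed and known to clear IGF2, was at 156, 158, 172 and 167 CPM in NT, at 190, 151, 148 and 166 CPM with Mycn-gRNA2 and at 200, 167, 160 and 167 CPM with Mycn-gRNA3. Which copies were active in these cells was not measured. The groups overlapped, and the difference was 0.05 (SE 0.0759, edgeR adjusted p = 0.682). Airn, the paternally expressed antisense RNA that silences the paternal Igf2r, was not tested. It was at 0.361, 0.0897, 0.198 and 0.220 CPM in NT, at 0.174, 0.358, 0.209 and 0.0755 CPM with Mycn-gRNA2 and at 0.161, 0.292, 0.217 and 0.210 CPM with Mycn-gRNA3. Its values rest on single-digit read counts, and the groups overlapped. Grb10, an adaptor that restrains insulin and IGF signalling, averaged 144 ± 27.0 CPM over NT libraries (SD, n = 4). Its averages were 196 ± 56.2 for Mycn-gRNA2 and 171 ± 16.7 for Mycn-gRNA3, and it was not called (0.35, SE 0.154, edgeR adjusted p = 0.104).

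The Dlk1-Dio3 cluster on chromosome 12 gave the largest falls, all in its maternally expressed noncoding RNAs. Meg3 (chr12:109540996-109571729) is the first of them along the cluster. It was at 37, 38.3, 47.1 and 39.5 CPM in NT, at 17.2, 32.7, 28.6 and 17.9 CPM with Mycn-gRNA2 and at 19.4, 23.8, 17.6 and 22.9 CPM with Mycn-gRNA3. Every guide library was below every NT library, and replicates 2 and 3 of Mycn-gRNA2 were the nearest to NT. Meg3 fell by 0.85 (SE 0.153, edgeR adjusted p = 0.00115).

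Rian (chr12:109603945-109661711), which hosts small nucleolar RNAs, was at 29.3, 31.2, 32.5 and 31.1 CPM in NT. With Mycn-gRNA2 it was at 11.7, 21.3, 17.6 and 12.0 CPM, and with Mycn-gRNA3 at 13.1, 14.7, 12.3 and 15.1 CPM. The groups did not overlap, and again replicates 2 and 3 of Mycn-gRNA2 were its highest guide libraries. Rian fell by 1.08 (SE 0.131, edgeR adjusted p = 6.57e-05). Mirg (chr12:109734981-109749457), the microRNA host downstream, was at 1.72, 2.60, 1.74 and 2.11 CPM in NT, at 0.522, 1.31, 0.752 and 1.02 CPM with Mycn-gRNA2 and at 0.888, 0.838, 0.326 and 0.898 CPM with Mycn-gRNA3. All 8 guide libraries were below NT, and Mirg fell by 1.33 (SE 0.244, edgeR adjusted p = 0.00135). Per ERCC read Meg3 fell by 0.48 (edgeR adjusted p = 0.0055), Rian fell by 0.71 (edgeR adjusted p = 0.000106) and Mirg fell by 0.95 (edgeR adjusted p = 0.00157).

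Dlk1 (chr12:109452823-109463336), the paternally expressed Notch-related membrane protein of the same cluster, behaved otherwise. It was at 3.97, 3.23, 4.16 and 4.88 CPM in NT, at 3.87, 2.5, 4.34 and 5.51 CPM with Mycn-gRNA2 and at 4.24, 3.06, 5.90 and 4.88 CPM with Mycn-gRNA3. The groups overlapped, and the difference was 0.09 (SE 0.200, edgeR adjusted p = 0.782). Per exon length, the log2 ratio of Meg3 to Dlk1 was 1.89 ± 0.26 in NT (SD, n = 4), 1.13 ± 0.86 for Mycn-gRNA2 and 0.81 ± 0.56 for Mycn-gRNA3. That of Rian to Meg3 moved less, from 1.48 ± 0.11 to 1.24 ± 0.06 and 1.26 ± 0.08. Rtl1 and Dio3, paternally expressed genes of the cluster outside the 37, were not called (-0.09 and -0.34). Among 14 tested neighbours within 1 Mb, 2 were higher and none lower, with a median of -0.11, beside 14.9% and 13% of all genes.

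**Figure D2:**
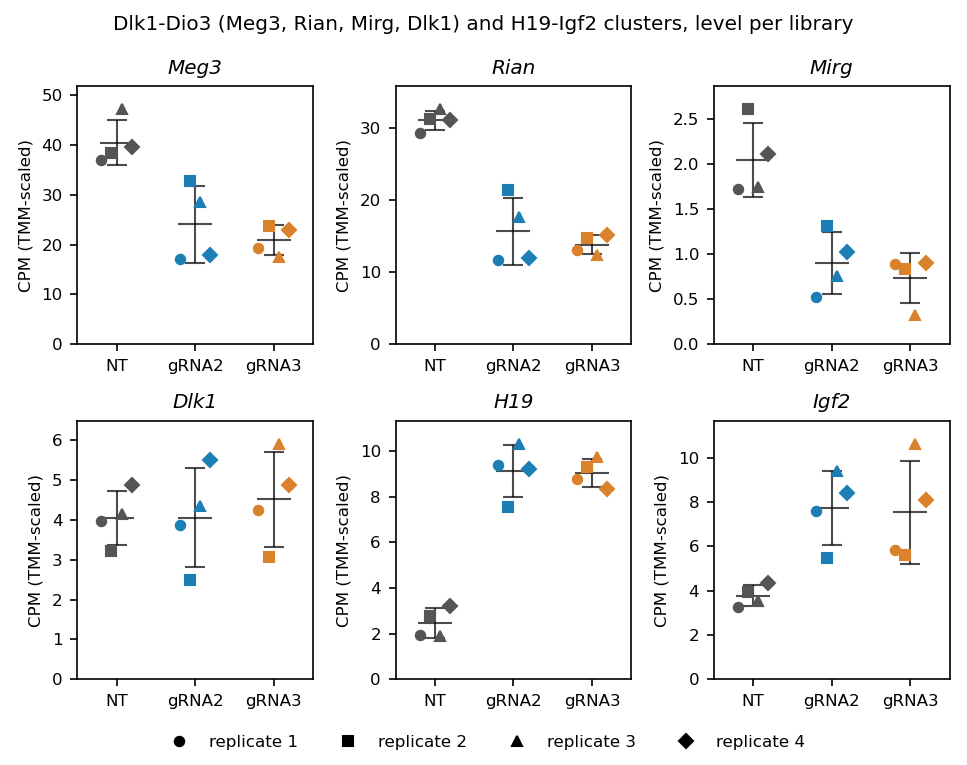
CPM per library (TMM-scaled, axes from 0) for 4 genes of the Dlk1-Dio3 cluster and for H19 and Igf2, with marker shape for replicate number and bars for the mean ± SD of 4 libraries. Meg3, Rian and Mirg are below NT and H19 and Igf2 above NT in all 8 guide libraries, while Dlk1 overlaps NT.

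The Snrpn-Ube3a region, on chromosome 7, was mixed, with 3 paternally expressed genes higher and 1 lower. Peg12 (chr7:62461871-62464510), which encodes a GSK3-binding protein of the FRAT family, was at 1.72, 1.62, 1.35 and 1.28 CPM in NT, at 2.78, 2.5, 3.93 and 3.97 CPM with Mycn-gRNA2 and at 5.49, 4.56, 5.36 and 4.31 CPM with Mycn-gRNA3. All guide libraries were above NT, and those of Mycn-gRNA3 were above those of Mycn-gRNA2. Peg12 rose by 1.44 (SE 0.163, edgeR adjusted p = 3.78e-05). The rise was 1.16 for Mycn-gRNA2 alone and 1.72 for Mycn-gRNA3 alone. The direct difference between the guides was 0.56 (SE 0.163) and was not called (edgeR adjusted p = 0.549).

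Magel2 (chr7:62376979-62381640), a MAGE family regulator of ubiquitin ligases, was at 2.48, 1.93, 2.34 and 2.77 CPM in NT, at 3.78, 3.46, 4.68 and 4.65 CPM with Mycn-gRNA2 and at 4.32, 4.48, 5.43 and 4.46 CPM with Mycn-gRNA3. It rose by 0.89 (SE 0.133, edgeR adjusted p = 0.00032) with no overlap. Ndn (chr7:62348277-62349927), necdin, of the same MAGE family, was at 9.03, 9.29, 8.67 and 9.02 CPM in NT, at 9.35, 10.2, 11.1 and 13.1 CPM with Mycn-gRNA2 and at 12.5, 11.8, 12.4 and 11.4 CPM with Mycn-gRNA3. Its guide libraries lay above NT, replicate 1 of Mycn-gRNA2 only just. Ndn rose by 0.35 (SE 0.0888, edgeR adjusted p = 0.00963). With Mycn-gRNA2 alone its difference was 0.28 and not called (edgeR adjusted p = 0.0703).

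Mkrn3 (chr7:62417593-62420139), a ring-finger protein of the makorin family that lies beside these genes, went the other way. It was at 9.35, 7.85, 9.78 and 8.58 CPM in NT, at 6.26, 5.72, 6.22 and 7.36 CPM with Mycn-gRNA2 and at 8.11, 6.27, 6.05 and 6.29 CPM with Mycn-gRNA3. All guide libraries but replicate 1 of Mycn-gRNA3 were below NT. Mkrn3 fell by 0.44 (SE 0.105, edgeR adjusted p = 0.00646) relative to the transcriptome, and per ERCC read the difference was -0.03 (edgeR adjusted p = 0.875).

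Ube3a (chr7:59228750-59306727), a ubiquitin ligase expressed from the maternal copy in neurons and from both copies in most other cells, was at 129, 124, 128 and 121 CPM in NT. It was at 131, 129, 124 and 107 CPM with Mycn-gRNA2 and at 113, 111, 108 and 109 CPM with Mycn-gRNA3. All 4 Mycn-gRNA3 libraries were below NT, whereas those of Mycn-gRNA2 overlapped it. With both guides the difference was -0.11 (edgeR adjusted p = 0.157). With Mycn-gRNA3 Ube3a fell by 0.19 (SE 0.0653, edgeR adjusted p = 0.0451), a call lost without any one NT library (edgeR adjusted p from 0.0635 to 0.105) and without any one Mycn-gRNA3 library (0.0554 to 0.115), and also without Mycn-gRNA2 replicate 3 (0.0611). Per ERCC read the sign turned, to 0.29 with Mycn-gRNA3 (edgeR adjusted p = 0.0654).

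Mest (chr6:30733506-30748466), a paternally expressed hydrolase-family gene linked to growth, was at 39.6, 37.2, 27.9 and 35.6 CPM in NT. With Mycn-gRNA2 it was at 94.3, 46.9, 60.2 and 63.8 CPM, and with Mycn-gRNA3 at 65.7, 67.6, 68.2 and 61.1 CPM. All guide libraries were above NT, with replicate 1 of Mycn-gRNA2 the highest and replicate 2 the lowest of them. Mest rose by 0.91 (SE 0.149, edgeR adjusted p = 0.000624). Its exons share 913 bases, 32.9% of its length, with the antisense gene Copg2, whose level was 57.0 CPM, and no source used here gives the strand setting of the counting, so the pair may share reads.

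**Figure D3:**
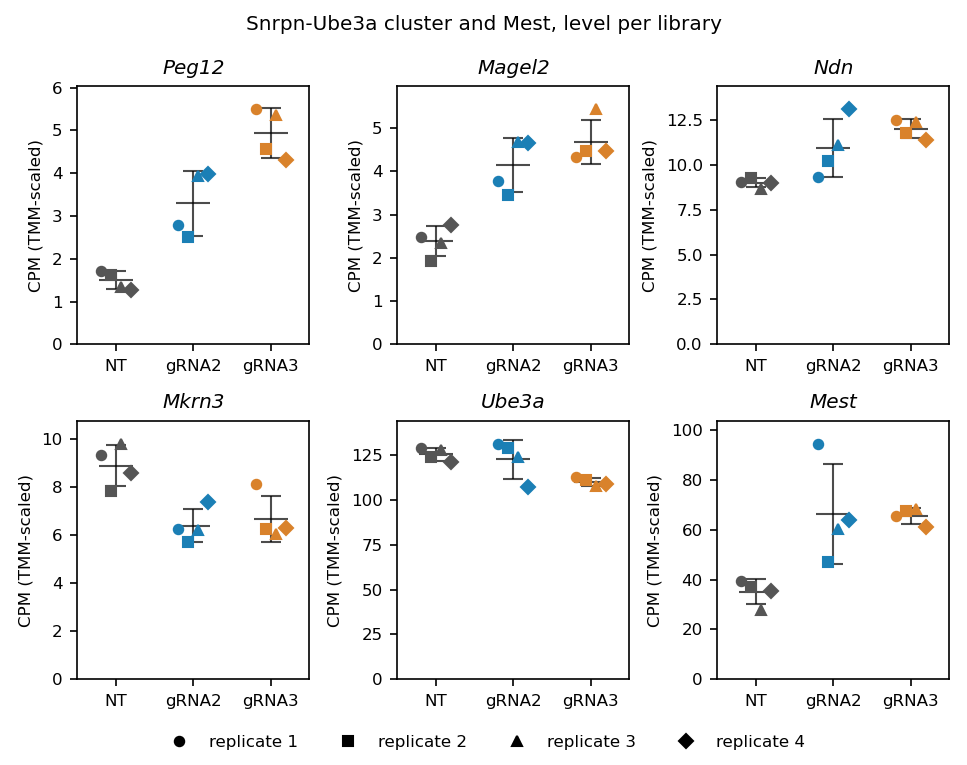
CPM per library (TMM-scaled, axes from 0) for 5 genes of the Snrpn-Ube3a region and for Mest, with marker shape for replicate number and bars for the mean ± SD of 4 libraries. Peg12, Magel2, Ndn and Mest lie above NT in all 8 guide libraries, Mkrn3 lies below NT in 7 of 8, and Ube3a lies below NT in the 4 Mycn-gRNA3 libraries.

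The remaining 5 genes that rose lay at other loci, and 3 of them are paternally expressed. Slc38a4 (chr15:96994823-97055956), an amino acid transporter, was at 66.7, 67.8, 62.2 and 55.4 CPM in NT, at 87.4, 113, 95.4 and 84.4 CPM with Mycn-gRNA2 and at 93.2, 94.9, 87.7 and 94.1 CPM with Mycn-gRNA3. All guide libraries were above NT, and Slc38a4 rose by 0.57 (SE 0.0811, edgeR adjusted p = 0.000207). Sgce (chr6:4674350-4747204), epsilon-sarcoglycan, was at 4.15, 4.62, 4.00 and 5.81 CPM in NT, at 7.39, 5.36, 7.23 and 6.23 CPM with Mycn-gRNA2 and at 6.94, 7.03, 5.83 and 6.59 CPM with Mycn-gRNA3. Only replicate 2 of Mycn-gRNA2 overlapped NT, and Sgce rose by 0.50 (SE 0.124, edgeR adjusted p = 0.00824). Peg10, the retrotransposon-derived gene beside Sgce that the placenta needs, was not called (0.10, edgeR adjusted p = 0.363), with 199 to 248 CPM in NT and 204 to 259 CPM with the guides.

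H13 (chr2:152669461-152708668), a maternally expressed signal peptide peptidase, was at 35.2, 35.3, 36.7 and 37.5 CPM in NT, at 45.5, 39.3, 46.3 and 48.6 CPM with Mycn-gRNA2 and at 43.6, 47.1, 48.6 and 44.7 CPM with Mycn-gRNA3. No guide library overlapped NT, and H13 rose by 0.33 (SE 0.0633, edgeR adjusted p = 0.00181). Mcts2, a paternally expressed retrocopy inside an intron of H13, had 13.3 to 17.4 CPM over all 12 libraries and was not called (-0.06, edgeR adjusted p = 0.581). Gnas (chr2:174284320-174346742), which encodes the stimulatory G protein alpha subunit, was at 180, 190, 179 and 191 CPM in NT, at 264, 173, 250 and 261 CPM with Mycn-gRNA2 and at 210, 218, 266 and 240 CPM with Mycn-gRNA3. Replicate 2 of Mycn-gRNA2 was below all of NT and the other 7 guide libraries above it. Gnas as counted spans several annotated starts, so its level cannot be assigned to the transcript of that subunit alone. Gnas rose by 0.35 (SE 0.102, edgeR adjusted p = 0.0204), a call lost without NT replicate 1 (0.0601) or NT replicate 3 (0.0649).

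Nap1l5 (chr6:58905233-58907126), a retrocopy of the nucleosome assembly protein family, had 0.396 to 0.497 CPM in NT, 0.609 to 0.755 CPM with Mycn-gRNA2 and 0.507 to 0.898 CPM with Mycn-gRNA3. It rose by 0.73 (SE 0.202, edgeR adjusted p = 0.016), without overlap but at low counts. The call was lost without NT replicate 3 (edgeR adjusted p = 0.054) or NT replicate 4 (0.0506) and in DESeq2 (adjusted p = 0.0722). For Mycn-gRNA2 alone the difference of Nap1l5 was 0.69 and not called (edgeR adjusted p = 0.0735). Nnat, the membrane proteolipid neuronatin, was not called (0.29, edgeR adjusted p = 0.176), with 14.1 to 15.8 CPM in NT and 11.5 to 22.6 CPM with the guides.

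Paternally expressed genes outside these clusters also fell. Zdbf2 (chr1:63200358-63314575), a zinc finger gene, was at 614, 603, 641 and 648 CPM in NT, at 390, 523, 451 and 372 CPM with Mycn-gRNA2 and at 365, 383, 381 and 409 CPM with Mycn-gRNA3. All guide libraries were below NT, and Zdbf2 fell by 0.62 (SE 0.0769, edgeR adjusted p = 7.81e-05). Per ERCC read its difference was -0.23 and not called (edgeR adjusted p = 0.0758). Peg13 (chr15:72805600-72810324), a noncoding RNA inside an intron of Trappc9, was at 9.39, 8.26, 8.27 and 8.62 CPM in NT, at 6.04, 5.84, 4.89 and 4.15 CPM with Mycn-gRNA2 and at 5.09, 3.94, 4.71 and 5.12 CPM with Mycn-gRNA3. No guide library reached NT, and Peg13 fell by 0.80 (SE 0.110, edgeR adjusted p = 0.000165).

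Impact (chr18:12972252-12992948), an inhibitor of the amino acid sensing kinase GCN2, was at 173, 182, 175 and 172 CPM in NT, at 174, 133, 114 and 121 CPM with Mycn-gRNA2 and at 146, 116, 95.5 and 122 CPM with Mycn-gRNA3. Replicate 1 of Mycn-gRNA2 was inside the NT range and the other 7 guide libraries below it. Impact fell by 0.46 (SE 0.111, edgeR adjusted p = 0.00721), with a difference of -0.07 per ERCC read (edgeR adjusted p = 0.667). With Mycn-gRNA2 alone its difference was -0.37 and not called (edgeR adjusted p = 0.0653). Zrsr1 (chr11:22972005-22976496), a retrocopy related to splicing factor U2AF, was at 27.0, 24.9, 25.3 and 32.9 CPM in NT, at 27.4, 22, 21.3 and 21.5 CPM with Mycn-gRNA2 and at 21.7, 21.8, 20.3 and 22.3 CPM with Mycn-gRNA3. Only replicate 1 of Mycn-gRNA2 overlapped NT. Zrsr1 fell by 0.31 (SE 0.0886, edgeR adjusted p = 0.0198), a call lost without NT replicate 4 (0.0982), and its sign turned per ERCC read (0.10, edgeR adjusted p = 0.552). For Mycn-gRNA2 alone the difference of Zrsr1 was -0.26 and not called (edgeR adjusted p = 0.108).

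Plagl1 (chr10:13090788-13131695), a zinc finger transcription factor known to slow growth, was at 38.9, 38.5, 46.2 and 59.7 CPM in NT, at 69.8, 23.8, 32.7 and 33.3 CPM with Mycn-gRNA2 and at 26.3, 24.6, 28.5 and 26.6 CPM with Mycn-gRNA3. Replicate 1 of Mycn-gRNA2 was the highest library of all 12, and the other 7 guide libraries were below NT. With both guides Plagl1 was not called (-0.49, SE 0.219, edgeR adjusted p = 0.113). With Mycn-gRNA3 it fell by 0.79 (SE 0.259, edgeR adjusted p = 0.0376), a call lost without NT replicate 3 (0.0679), NT replicate 4 (0.114) or any one Mycn-gRNA3 library (0.0634 to 0.0859). Without replicate 1 of Mycn-gRNA2, Plagl1, Nnat and Ube3a were called with both guides. Calls over all genes rose in that fit too, to 3206 higher and 2951 lower of 14631. With all libraries they were 2156 and 1878 of 14497.

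The Peg3 cluster on chromosome 7 had no call in the fit without a replicate block. Peg3, a zinc finger protein, was at 305 to 429 CPM in NT and at 249 to 386 CPM with the guides (-0.21, edgeR adjusted p = 0.181). Usp29, a ubiquitin protease gene read in the opposite direction, had a difference of -0.26 (edgeR adjusted p = 0.301), and Zim1, a maternally expressed zinc finger gene, one of 0.05 (edgeR adjusted p = 0.906). Usp29 shares 33.5% of its exon bases with Zim3, listed at 0 reads in every library.

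In the Kcnq1ot1 cluster on chromosome 7 the noncoding RNA was lower, and none of the 4 maternally expressed genes was called with both guides. In NT, all 4 had values in replicates 1 and 2 apart from those in replicates 3 and 4. Replicates 1 and 2 were higher for Cdkn1c, Slc22a18 and Ascl2 and lower for Phlda2. With each guide, Cdkn1c and Phlda2 were higher in replicates 3 and 4. Kcnq1ot1 (chr7:143213111-143296547, minus strand), a paternally expressed RNA known to silence its neighbours on the same copy, was at 509, 411, 498 and 513 CPM in NT. It was at 478, 448, 392 and 299 CPM with Mycn-gRNA2 and at 312, 316, 309 and 342 CPM with Mycn-gRNA3. All 4 Mycn-gRNA3 libraries were low, while replicates 1 and 2 of Mycn-gRNA2 overlapped NT. Kcnq1ot1 fell by 0.42 (SE 0.102, edgeR adjusted p = 0.00706), by 0.59 with Mycn-gRNA3 (edgeR adjusted p = 0.00285), and had a difference of -0.26 with Mycn-gRNA2 (edgeR adjusted p = 0.162). Per ERCC read the difference with both guides was -0.03 (edgeR adjusted p = 0.823).

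Cdkn1c (chr7:143458339-143461050, minus strand) encodes p57, an inhibitor of cyclin-dependent kinases. It was at 162, 178, 62.3 and 60.8 CPM in NT, at 78.5, 93.2, 95 and 111 CPM with Mycn-gRNA2 and at 132, 136, 183 and 151 CPM with Mycn-gRNA3. NT replicates 1 and 2 were high and NT replicates 3 and 4 low, further apart than any guide libraries of one group. Over all libraries its difference with both guides was 0.05 (SE 0.260, edgeR adjusted p = 0.916). Within replicates 1 and 2 it fell by 0.66 (edgeR adjusted p = 0.0328), and within replicates 3 and 4 it rose by 1.09 (edgeR adjusted p = 4.52e-09). Against all NT libraries, its difference was -0.29 with Mycn-gRNA2 (edgeR adjusted p = 0.558) and 0.38 with Mycn-gRNA3 (edgeR adjusted p = 0.362). Any direction for Cdkn1c against NT thus rests on the guide and on which NT libraries are used.

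Phlda2 (chr7:143501548-143502524), a pleckstrin-homology protein that limits growth of the placenta, was at 15.8, 15.0, 19.9 and 20.6 CPM in NT, at 15.6, 15.7, 36.9 and 48.5 CPM with Mycn-gRNA2 and at 19.5, 20.9, 49.7 and 39.6 CPM with Mycn-gRNA3. Replicates 3 and 4 of both guides were high, and replicates 1 and 2 were near NT. The difference with both guides was 0.79 and not called (SE 0.335, edgeR adjusted p = 0.0976). It was 0.21 within replicates 1 and 2 (edgeR adjusted p = 0.458) and 1.11 within replicates 3 and 4 (edgeR adjusted p = 1.19e-05). Slc22a18, a transporter-like gene, was at 2.08, 2.02, 1.31 and 1.19 CPM in NT. It had 1.22 to 1.47 CPM with Mycn-gRNA2 and 1.59 to 2.41 CPM with Mycn-gRNA3, and was not called (0.03, edgeR adjusted p = 0.914). Ascl2, a transcription factor of trophoblast, was at 2.17, 1.39, 0.871 and 1.1 CPM in NT. It had 1.04 to 2.06 CPM with the guides and was not called (0.07, edgeR adjusted p = 0.833).

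**Figure D4:**
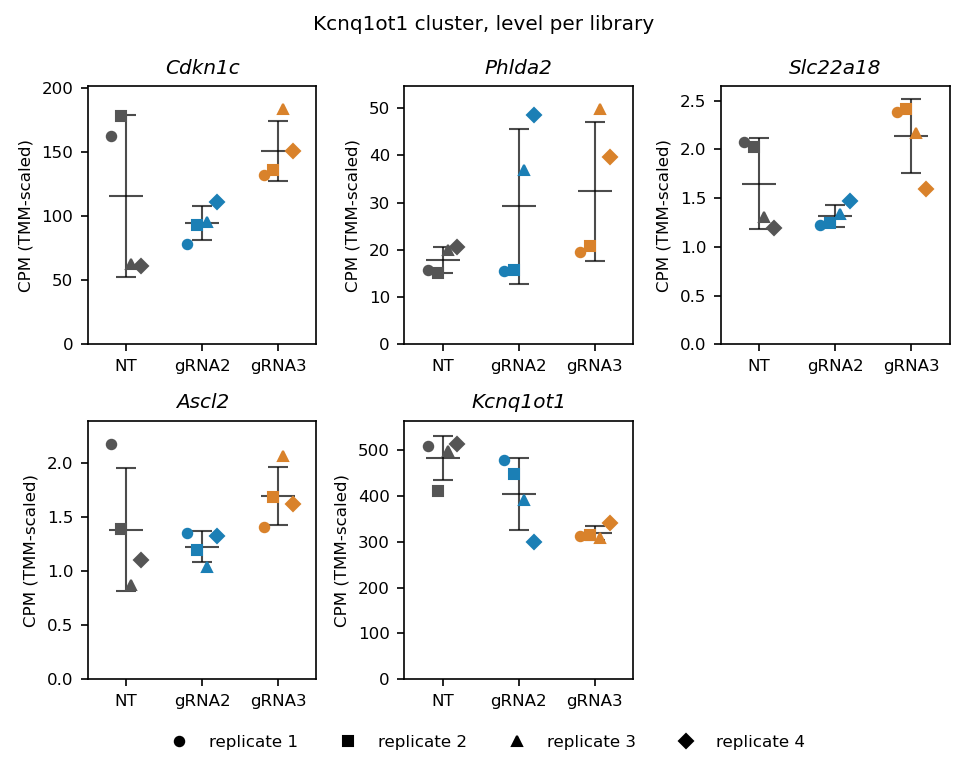
CPM per library (TMM-scaled, axes from 0) for the 5 genes of the Kcnq1ot1 cluster, with marker shape for replicate number and bars for the mean ± SD of 4 libraries. NT replicates 1 and 2 of Cdkn1c (162 and 178 CPM) stand far above NT replicates 3 and 4 (62.3 and 60.8 CPM), and Phlda2 is high in replicates 3 and 4 of both guides.

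Values within the 2 pairs of replicates are given for 4 more genes. Over all genes, replicates 1 and 2 alone gave 151 higher and 27 lower calls of 14496, and replicates 3 and 4 alone 3324 and 3061 of 14640, so a call made in one pair and not in the other is no sign of a difference between them. Plagl1 differed by -0.15 within replicates 1 and 2 (edgeR adjusted p = 0.9) and by -0.81 within replicates 3 and 4 (edgeR adjusted p = 2.92e-07). Its high library was Mycn-gRNA2 replicate 1, and the 4 Mycn-gRNA3 libraries did not separate by pair. For Nnat the values were 0.03 (edgeR adjusted p = 0.966) and 0.50 (edgeR adjusted p = 9.95e-05). H19 differed little between these pairs of replicates, at 1.90 (edgeR adjusted p = 0.015) and 1.89 (edgeR adjusted p = 2.4e-08), and Rian at -0.997 (edgeR adjusted p = 0.0764) and -1.16 (edgeR adjusted p = 3.33e-06). The labels give no batch for these replicate numbers, and the difference between the pairs was not tested.

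Each guide was also set against the same NT libraries, which the contrasts therefore share. With Mycn-gRNA2, 9 imprinted genes were higher and 6 lower of 35, a called share of 42.9% beside 17.1% of all genes tested (10.1% higher and 7.05% lower). With Mycn-gRNA3, 11 were higher and 11 lower, 62.9% beside 27.1% (14.8% higher and 12.2% lower). The medians were 0.01 and 0.16. In the direct comparison of Mycn-gRNA3 with Mycn-gRNA2 edgeR called none of the 35, beside 0% of all genes tested, and DESeq2 called none of them either. The share of all genes with an unadjusted edgeR p under 0.05 was not counted, so genes under that cutoff are no sign of a guide difference. Among the 35 there were 6, each with an edgeR adjusted p of 0.549. Peg12, Slc22a18 and Cdkn1c had higher values with Mycn-gRNA3, and Kcnq1ot1, Plagl1 and Ube3a had lower values. Their differences were 0.56, 0.68, 0.67, -0.34, -0.59 and -0.15 in that order. Within replicates 3 and 4 alone, which leaves few samples, Cdkn1c was called between the guides (0.70, edgeR adjusted p = 0.000494). Of all 14640 genes tested there, 4 were higher and 6 lower. Replicates 1 and 2 alone gave no call between the guides in any gene.

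Per ERCC read the balance of the imprinted genes changed. With both guides 18 were higher and 4 lower of 35, a share of 62.9% beside 57.3% of all genes tested (56.4% higher and 0.931% lower). With Mycn-gRNA2 14 were higher and 3 lower, beside 26.8% of all genes called (26.3% and 0.517%), and with Mycn-gRNA3 20 and 3, beside 61.2% (60.7% and 0.504%). The median with both guides was 0.45, beside 0.39 for all genes, so a called rise on this scale was shared by most of the transcriptome. The 4 lower genes were Meg3, Rian, Mirg and Peg13 (-0.41, edgeR adjusted p = 0.0259), and Peg13 lost its call without any one of the NT libraries (0.0522 to 0.0601), Mycn-gRNA2 replicate 3 (0.0509) or Mycn-gRNA3 replicate 2 (0.0626). Kcnq1ot1, Impact, Mkrn3, Zdbf2 and Zrsr1, lower relative to the transcriptome, were not called per ERCC read. Phlda2 was called on this scale (1.22, edgeR adjusted p = 0.0429), and lost the call without any one NT library (0.0777 to 0.117). It kept the call in 4 of the 12 fits that left out 1 library. Mcts2 (0.33, edgeR adjusted p = 0.0427) kept its call in 5 of the 12 and Ube3a (0.28, edgeR adjusted p = 0.0482) in 3.

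**Figure D5:**
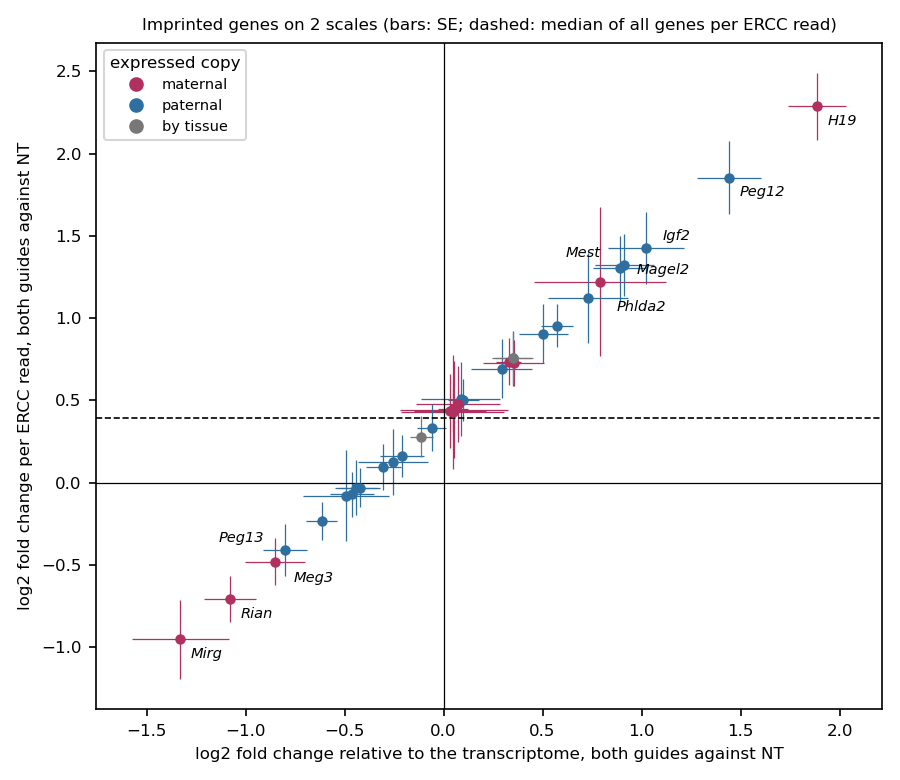
Log2 fold change of each of the 35 tested imprinted genes with both guides against NT, relative to the transcriptome (horizontal) and per ERCC read (vertical), coloured by expressed copy, with bars for the SE and a dashed line at the median of all genes per ERCC read, 0.39. Meg3, Rian, Mirg and Peg13 are below 0 and were called on both scales, while other genes below 0 on both axes were not called per ERCC read. H19 and Peg12 are farthest above the dashed line.

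Imprinted genes outside the 37 were taken from a second list of 47, of which 46 were in the table and 30 were tested. With both guides 4 of the 30 were higher and 9 lower, with a median of -0.14, where 14.9% of all genes tested were higher and 13% lower. Atp10a, a phospholipid flippase gene beside Ube3a, rose by 1.57 (SE 0.103, edgeR adjusted p = 4.6e-07). Its NT level of 5.37 ± 0.347 CPM (SD, n = 4) compared with 15.4 ± 1.65 for Mycn-gRNA2 and 16.5 ± 2.05 for Mycn-gRNA3. Sfmbt2, a Polycomb-related gene, and Smoc1, a secreted matrix protein, rose by 0.65 and 0.70. Adam23 fell by 0.73, Cobl by 0.78, Tspan32 by 0.94, Qpct by 0.59 and Ppp1r9a by 0.29, with edgeR adjusted p from 7.69e-06 to 0.00614 over these 7 genes. Per ERCC read, Qpct (-0.19, edgeR adjusted p = 0.431) was not called, and Ppp1r9a (0.11, edgeR adjusted p = 0.446) turned sign and was not called, while Adam23, Cobl and Tspan32 were lower (-0.35, -0.40 and -0.54). Adam23 lies near Zdbf2 on chromosome 1 and Cobl near Grb10 on chromosome 11. Over all clusters, 34 of 240 tested neighbours within 1 Mb that are on neither list were higher and 23 lower, with a median of -0.06. The shares over all genes tested were 14.9% and 13%.

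Of 24 genes linked to setting, keeping or removing imprints, 4 were higher and 7 lower with both guides, with a median of -0.09. Of all genes tested, 14.9% were higher and 13% lower. Zfp57, the zinc finger protein that binds methylated control regions, fell by 0.52 (SE 0.0549, edgeR adjusted p = 2.34e-05). Its level was 794 ± 42.0 CPM in the NT group (SD, n = 4), then 581 ± 43.8 and 530 ± 12.3 CPM with the Mycn guides, and per ERCC read its difference was -0.12 (edgeR adjusted p = 0.42). Dppa3, which shields methylation in the early embryo, rose by 1.59 (edgeR adjusted p = 6.57e-05), from 1.32 ± 0.436 CPM to 4.33 ± 0.633 and 3.64 ± 0.585 CPM. The de novo methyltransferases Dnmt3b and Dnmt3a rose by 0.99 (edgeR adjusted p = 0.00432) and 0.53 (edgeR adjusted p = 0.023). The demethylases Tet2 and Tet1 fell by 0.64 (edgeR adjusted p = 0.000183) and 0.32 (edgeR adjusted p = 0.00589), and Atrx and Arid4b, chromatin proteins, by 0.34 (edgeR adjusted p = 0.00383) and 0.24 (edgeR adjusted p = 0.0107). Per ERCC read, none of these 4 was called (0.07 for Tet1, -0.25 for Tet2, 0.06 for Atrx and 0.15 for Arid4b).

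Markers of other cell types moved with the groups, and their part in the imprinted gene results was not tested. The counts below stand beside 14.9% higher and 13% lower of all genes tested with both guides. Of 16 primitive endoderm markers 14 were tested, and 9 were higher and 1 lower with both guides, with summed levels over the list of 364 to 479 CPM in NT, 494 to 641 CPM with Mycn-gRNA2 and 552 to 645 CPM with Mycn-gRNA3. Ttr was at 0 in all NT libraries. Foxa2 rose by 4.99, from 0.0646 ± 0.0237 CPM in NT (SD, n = 4), and Lrp2 by 0.99. Trophoblast markers summed to 41.1 to 58.4 CPM in NT, 51.4 to 60.9 CPM with Mycn-gRNA2 and 53.4 to 56.8 CPM with Mycn-gRNA3, with Tpbpa and Prl3d1 at 0 in every library. Of the 14 listed, 8 were tested, and 2 were higher and 1 lower (Krt8 0.56 and Tfap2a -0.84 had the lowest adjusted p). Fibroblast or feeder markers summed to 26.1 to 35.7, 29.7 to 42.4 and 32.9 to 37.9 CPM, with Postn, Lum and S100a4 at 0 in NT, and 4 were higher and 1 lower of 8 tested of 14. Col5a2 differed by 1.88, and Col3a1, called higher, had 1 read over all NT libraries and 0.617 and 0.513 CPM with the guides. Mesendoderm markers summed to 69.0 to 72.6, 50.5 to 63.1 and 56.5 to 67.2 CPM, with 3 higher (Kdr 2.97 and Snai1 1.52 among them) and 2 lower of 9 tested of 14. Neuroectoderm markers summed to 562 to 631, 485 to 566 and 488 to 538 CPM, with 4 higher and 4 lower of 10 tested of 12. Among these, Olig2 was at 0.0517 CPM in NT and at 9.96 and 12.8 CPM with the guides (edgeR adjusted p = 4.44e-08), and Sox1 fell by 0.77 (edgeR adjusted p = 5.66e-05).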

How the data were processed

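The imprinted genes were read from a deposited table of raw counts per gene for 12 libraries. Processing notes of the submitters name Trim Galore 0.4.0, featureCounts (Subread 1.5.0), edgeR 3.32.1 and build mm10. No source used here gives the aligner, annotation release or strand setting. In a second deposited table the log2 values are those of count + 0.5, shifted by 1 constant for each library that follows its ERCC reads. It served only in an alternative test.

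The authors' counts were analysed with edgeR 4.0.16 in R 4.3.3. The quasi-likelihood test (robust, filterByExpr, 14497 genes) took all 12 libraries, with a term per group and Benjamini-Hochberg adjustment over every gene tested. Library sizes were TMM-scaled over endogenous genes or, for levels per ERCC read, set to the ERCC totals. Because extracted RNA received the spike, RNA yield enters those levels. Alternatives were RLE factors, other filters, DESeq2 1.42.0, a replicate block, each library left out and pairs of replicates. Promoter windows and microRNAs were matched to RefSeq tables of GRCm38.p6 by symbol or position. The fit was tested on simulated counts.

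The members and lists were chosen with earlier results of these data known. Values in every library are given for genes called in any contrast with a mean of at least 1 CPM and for reciprocal pairs. Cdkn1c and Phlda2, and the NT values of Slc22a18 and Ascl2, were added after their values were seen. Named genes of the other lists are the called ones with the lowest adjusted p, up to 8 per imprint list and up to 2 per marker list. Same-numbered Mycn-gRNA2 and Mycn-gRNA3 libraries deviated together from their group means in all 4 pairs (correlation across genes from 0.175 to 0.641). Libraries of different groups and different numbers ran from -0.644 to 0.471, the highest being Mycn-gRNA2 replicate 4 with Mycn-gRNA3 replicate 3. The numbers may thus pair these 2 groups, but do not show it for replicate 4. The NT numbers were not taken as pairs, with same-number correlations from -0.082 to 0.36, a range that overlaps that of the guides.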

Additional observations from a re-analysis of the deposited data

Results flagged for a closer look

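In 105 groups of 4 libraries, 9 had a library whose distance from the other 3 exceeded Dixon's 95% limit for 4 samples. Chance flags about 1 group in 20. In Mycn-gRNA3 replicate 1, Igf2r was at 200 CPM against 160 to 167, Mkrn3 at 8.11 CPM against 6.05 to 6.29 and Grb10 at 147 CPM against 177 to 182. In Mycn-gRNA3 replicate 3, Mirg was at 0.326 CPM against 0.838 to 0.898 and Magel2 at 5.43 CPM against 4.32 to 4.48. Kcnq1ot1 was at 411 CPM in NT replicate 2 against 498 to 513, and Nap1l5 at 0.497 CPM in NT replicate 1 against 0.396 to 0.404. With Mycn-gRNA2, Zrsr1 was at 27.4 CPM in replicate 1 against 21.3 to 22, and Gnas at 173 CPM in replicate 2 against 250 to 264.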

How the results depend on the processing

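RLE size factors, no filter, a stricter filter, DESeq2 and fits of the compared groups alone kept every count of called imprinted genes within 1.5 times. Of 1590 values for single called genes under the alternatives, 1404 kept their direction and call, 182 lost the call and 4 turned. All 4 turned with ERCC totals: Zrsr1 with both guides (0.10) and with Mycn-gRNA3 (0.13), Ube3a with Mycn-gRNA3 (0.29) and Mkrn3 with Mycn-gRNA3 (0.076), none called there. By construction that scale adds a shift to every gene. With ERCC totals the counts were 18 higher and 4 lower for both guides, 14 and 3 for Mycn-gRNA2, and 20 and 3 for Mycn-gRNA3. With replicates 1 and 2 only, which leaves few samples, they were 1 and 1, 1 and 1, and 2 and 0, and per ERCC read 8 and 1. All genes had few calls there too, 151 and 27, 32 and 1, and 200 and 26 of 14496, and per ERCC read 1101 and 12. With replicates 3 and 4 only, 10 were lower with Mycn-gRNA2 (2243 of 14640 genes overall), and 1 (Cdkn1c) was higher with Mycn-gRNA3 than with Mycn-gRNA2 (4 overall). Leaving out each library in turn gave 10 to 12 higher and 8 to 11 lower for both guides, 7 to 10 and 5 to 10 for Mycn-gRNA2, 8 to 12 and 7 to 11 for Mycn-gRNA3, 0 to 0 in both directions between the guides, and 15 to 21 and 3 to 5 per ERCC read. Of these, 10 lower with Mycn-gRNA2 (without its replicate 1, against 6) and 7 lower with Mycn-gRNA3 (without its replicate 3, against 11) moved by over 1.5 times. For both guides, all genes ranged from 1627 to 3206 higher and from 1276 to 2951 lower over these fits. The ranges were 1031 to 2217 and 591 to 1897 for Mycn-gRNA2, and 1568 to 3209 and 1087 to 2803 for Mycn-gRNA3. Per ERCC read they were 5479 to 10133 and 76 to 186 with both guides. With the replicate block, the counts were 13 higher and 10 lower for both guides, where Grb10, Peg3 and Phlda2 were newly called (2325 and 2131 of 14497 genes overall). They were 10 and 8 for Mycn-gRNA2 (1594 and 1214 of all genes) and 12 and 12 for Mycn-gRNA3 (2362 and 2053). None was called between the guides, and per ERCC read the counts were 17 and 4 (7393 and 132). Not every library correlated best with its own number. Precision at low counts limits Mirg, Nap1l5 and Zim1, and Airn and Snrpn could not be tested.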
